A study of Saccharomyces cerevisiae with 2 samples.

Results

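The genes for the subunits of RNA polymerases I, II and III of budding yeast (Saccharomyces cerevisiae) were examined for how much of their histone H3 was recently made. The 31 members were chosen by function, though with earlier results of these data known, and were found among 5898 reading frames with a usable position and length. They comprise 7 genes for subunits of Pol I alone, 2 for subunits of both Pol I and Pol III, 5 for subunits common to all 3 enzymes, 7 for subunits of Pol II alone and 10 for subunits of Pol III alone.

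Strain MDY513, which carries a deletion of HTZ1 and so has no histone variant H2A.Z, was held in G1 for 4 hours with alpha factor, a mating pheromone, at 4 µg/mL, and was then moved to rich medium with 2% galactose. The cells made H3-Myc constitutively and H3-Flag on induction by galactose, and after 180 min each tagged histone was immunoprecipitated, amplified linearly and hybridised to a 44K tiling array, Myc in Cy5 and Flag in Cy3. There were 2 replicate arrays of this 1 group; a strain with HTZ1, other times and swapped dyes were not analysed here. Nothing in the labels tells if the replicates were separate cultures, so p-values here rest only on differences between the 2 arrays, which may be technical noise alone. For promoters that spread was pooled over all genes, so a promoter p-value does not reflect the array difference of that gene. The single probe inside the HTZ1 frame failed the detection limit for Flag and for Myc on both arrays, so no signal was detected from the deleted gene.

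All values are log2 of Flag over Myc, centred so that 0 is the median of the array's used probes, whatever the absolute amounts of the tagged histones. A positive value therefore marks a region where the ratio of induced, younger H3 to constitutively made H3 was higher than at the median probe. It does not show that the region held more younger H3 in absolute terms. Below, high or low young H3 refers to this ratio. Because chromatin came from a population, more cells with new H3 and more new H3 per cell cannot be told apart. The arrays agreed closely, with a Pearson correlation of 0.967 over 34899 used probes, a median SD between arrays of 0.16 per probe and an SD of 1.32 across probes. Whether a region lay above or below 0 was tested with limma, with Benjamini-Hochberg adjustment at 0.05 over all genes of the genome. A coding value is the mean over probes with their midpoint in the frame, and a promoter value the mean over probes within 500 bp upstream of the start codon that lie in no frame.

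Pol I makes the large ribosomal RNA precursor, Pol II the messenger RNAs, and Pol III transfer RNAs and other small RNAs. Each enzyme has a catalytic core built from a largest and a next largest subunit, a pair of assembly subunits, a stalk of paired subunits, a zinc ribbon subunit and the subunits all enzymes share, and Pol I and Pol III carry built-in subunits that resemble the Pol II initiation factors TFIIF and TFIIE. All of the subunit genes are themselves transcribed by Pol II. H3 is known to be replaced outside of DNA replication faster at promoters than within long coding regions.

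The subunit genes were divided in their frames and mostly high in young H3 at their promoters. A coding value was measured for 30 of the 31 genes; 11 lay above the array median, 15 below and 4 on neither side, where 39.1% and 42.9% of all 5573 frames tested lay above and below. The median over the 30 genes was -0.36, against -0.06 for all frames. At promoters 21 of 26 measured genes lay above 0 and 0 below by limma (0 also at an unadjusted p under 0.05), where 75.9% of all 4542 promoters lay above and 7.0% below. Their promoter median was 0.95, against 0.98 for all promoters, so the promoters were near the genome's background. The 5 promoters that did not pass were those of RPO21, RPB2, RPB7, RPB9 and RPC53.

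**Figure D1:**
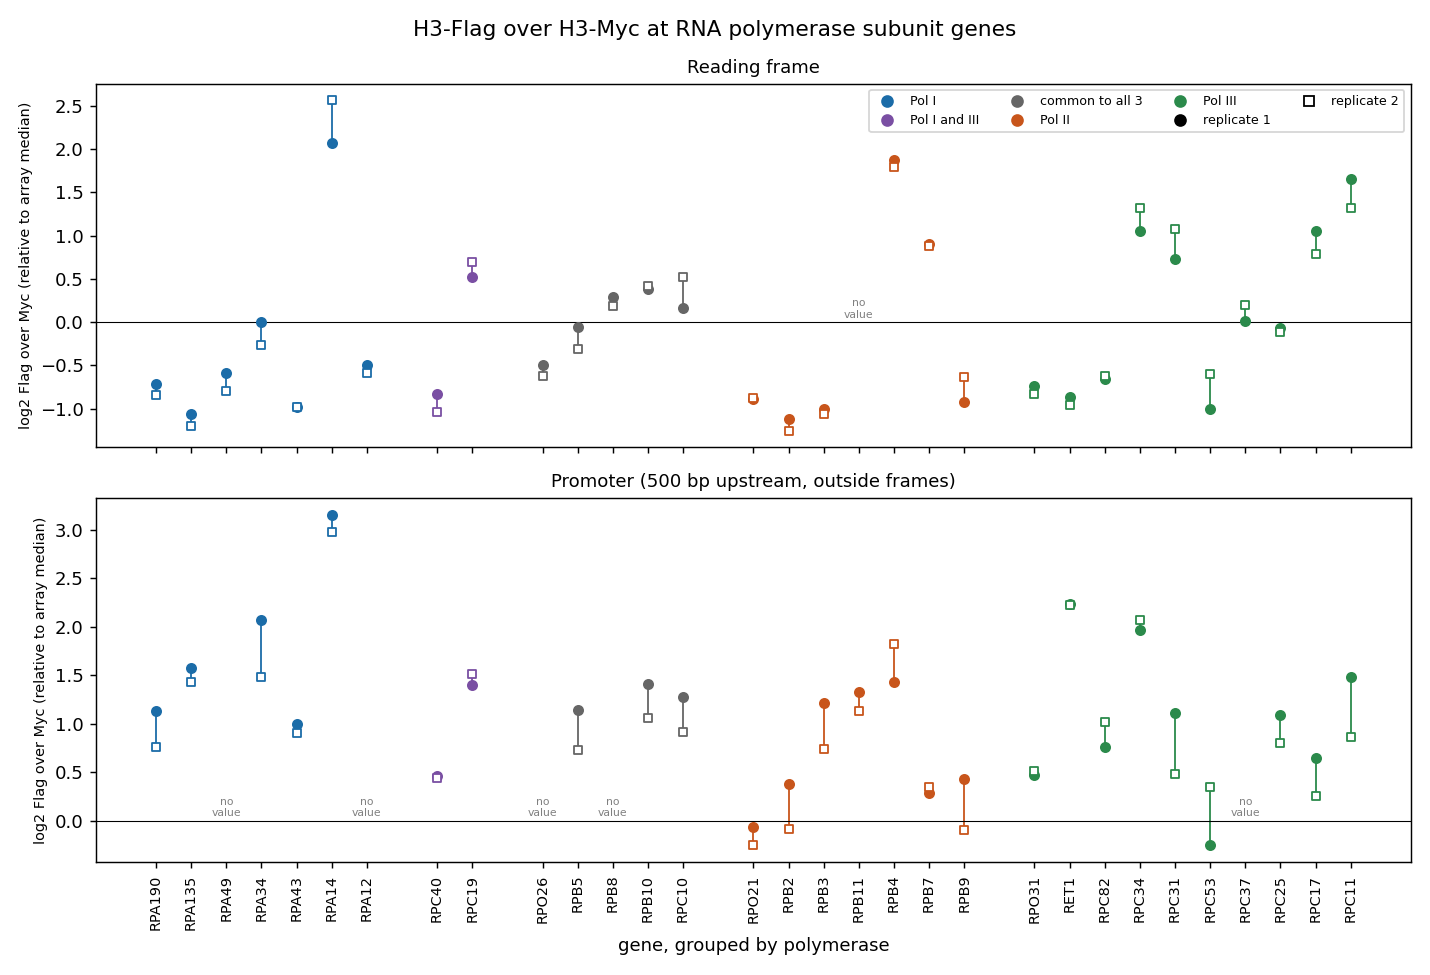
Median-centred log2 Flag over Myc (vertical axes) for each subunit gene (horizontal axis, grouped by polymerase) in the reading frame (top) and the promoter (bottom). Filled circles are replicate 1 and open squares replicate 2, joined by a line, and genes without a usable probe are marked. Frames range from -1.19 (RPB2) to 2.32 (RPA14), and 22 of 26 promoters lie above 0 on both arrays.

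The largest subunits form the active site and the clamp over DNA, and their genes are among the longest frames of the set. RPA190 of Pol I lay at -0.71 and -0.84 in the frame on replicates 1 and 2, RPO21 of Pol II at -0.89 and -0.88, and RPO31 of Pol III at -0.73 and -0.83. All 3 genes lay below the array median on both arrays and differed from one another by about as much as the arrays did (means -0.78, -0.88 and -0.78, SD 0.09, 0.01 and 0.07, n = 2; limma adjusted p = 0.00013, 5.5e-05 and 0.00012). Their promoters were less alike. RPA190 had 1.13 and 0.76 at its promoter, RPO31 had 0.48 and 0.52 on its 1 usable probe, and RPO21 had -0.06 and -0.25. RPO21 had the lowest promoter value of the set and the only one below 0 on both arrays, although it did not pass the test (limma adjusted p = 0.38).

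The RPO21 promoter held a gradient. Its 3 probes stood at 0.98 (479 bp upstream of the start codon), -0.24 (292 bp) and -1.20 (31 bp), so the probe next to the start codon was as low as the frame itself. With the window narrowed to 300 bp, which drops the farthest probe, the promoter mean was -0.72 and passed as lower.

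The next largest subunits, which complete the catalytic cleft, were similar in the frame but not upstream. RPA135 of Pol I lay at -1.06 and -1.20 in the frame, RPB2 of Pol II at -1.12 and -1.25, and RET1 of Pol III at -0.86 and -0.95. The RPB2 frame was the lowest of the 30 and only 251 of 5573 frames were lower. At their promoters the order was RET1 (2.24 and 2.23), RPA135 (1.58 and 1.44) and RPB2 (0.39 and -0.09). The 3 promoters did not overlap between genes on either array, and RPB2 did not pass (limma adjusted p = 0.40). RET1 had the largest step from frame to promoter of the set, 3.14 ± 0.05 (SD, n = 2; limma adjusted p = 1.1e-09). Both of its usable promoter probes also lie upstream of the divergent gene PTP2, whose start codon is 467 bp from that of RET1.

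Along these long frames the position of the young H3 differed. RET1 (reverse strand of chromosome 15) remained high beyond its start codon: the probe at 111 bp (chr15:733317-733376 in the files' coordinates, of a build the sources used here do not name) read 2.19 and 2.37, and the probe at 363 bp read 1.32 and 1.54. By 844 bp the value was -1.28 and -1.03, and it reached its lowest at 2351 bp with -2.13 and -2.20. Young H3 thus extended from the upstream region that RET1 shares with PTP2 into the start of the RET1 frame. It then gave way to values below the array median.

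RPO31, the partner of RET1 in Pol III, declined more slowly. It went from 0.55 at 190 bp through 0.33 at 792 bp to -1.81 at 3102 bp, and ended at 0.25 at 4180 bp, near its stop codon. With each frame split into 3 equal parts, the first part exceeded the middle by 2.82 ± 0.18 in RET1 and by 1.67 ± 0.12 in RPO31 (SD, n = 2; limma adjusted p = 3.6e-06 and 2.3e-05).

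The 5′ ends of the Pol I and Pol II genes gave smaller differences. In RPA190 the first part exceeded the middle by only 0.07 ± 0.08, in RPO21 by 0.27 ± 0.01 and in RPB2 by 0.18 ± 0.31 (SD, n = 2), and none of the 3 passed (limma adjusted p = 0.69, 0.11 and 0.34). With normexp background correction RPO21 and RPB2 both passed, at 0.43 each (limma adjusted p = 0.017 and 0.035). RPA135 passed, with 0.73 ± 0.12 (limma adjusted p = 0.0020), its values falling from -0.35 at 292 bp to -2.02 at 1738 bp. The differences between these genes were not themselves tested.

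RPA190 had its young H3 at the 3′ end instead. From 362 bp to 3533 bp every one of its probes lay between -1.49 and -1.04, and from there the values climbed to 0.14 at 4275 bp, 0.79 at 4547 bp and 1.88 at 4910 bp. The last of these probes (chr15:965863-965922, forward strand gene) read 2.09 and 1.67 and lies inside the frame, whose convergent neighbour YOR342C ends 684 bp downstream. The last part of the frame exceeded the middle by 1.15 ± 0.19 (SD, n = 2; limma adjusted p = 0.00037), the largest such difference among the 19 members where it could be measured.

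RPO21 also rose toward its 3′ end, with 0.92 ± 0.19 (SD, n = 2; limma adjusted p = 0.0011), but the 2 probes nearest its stop codon are among the brightest of the array. The probes at 4795 bp and 4946 bp lie in the region that codes for the heptad repeats of the C-terminal domain, the tail that recruits processing factors to Pol II. At most 0.304% of used probes were brighter than them in either channel of either array. When the ratios were normalised by loess on intensity these 2 probes went from 0.04 and 0.20 to -2.30 and -1.98, and the last part of the frame was no longer above the middle (-0.25). The part of probe brightness in the RPO21 3′ rise was not otherwise tested.

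Over the set, the first part of the frame exceeded the middle in 11 of 16 measured genes, where 60.1% of 4159 frames did, and lay below it in 0 by limma (0 also unadjusted, since every member mean was positive), where 9.33% did. The last part exceeded the middle in 8 of 19 and lay below it in 3 (RPB3, RPC31 and RPC25), where 49.3% and 13.4% of 4117 frames did. The medians of both differences (0.62 and 0.35) were close to those of all frames (0.57 and 0.39). Taken singly, of the members' 135 used frame probes 23 were higher than the array median and 92 lower (limma, adjusted over all used probes), where 29.9% and 50% of all 25814 frame probes were. Many of these probes lie in a few long frames, such as RPA190 (16) and RPO21 (15), and probes of the same gene are not independent. Of the members' 41 used promoter probes, 33 lay above and 1 below, the RPO21 probe next to the start codon, where 76.5% and 6.82% of 5583 promoter probes did.

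**Figure D2:**
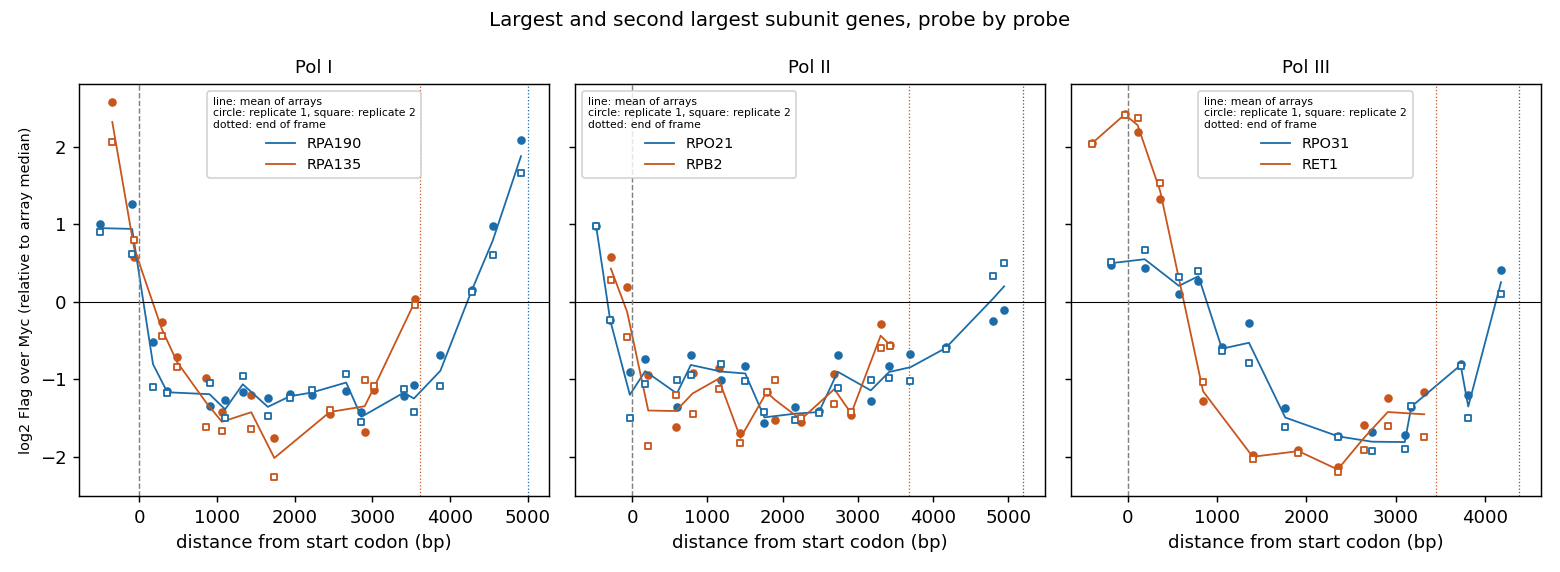
Median-centred log2 Flag over Myc (vertical axis) against distance from the start codon in bp (horizontal axis) for the genes of the largest and next largest subunits of Pol I, Pol II and Pol III. Lines join means of the 2 arrays, circles are replicate 1, squares replicate 2, the dashed line is the start codon and dotted lines are the frame ends. RET1 starts at 2.05 and falls to -2.17, and RPA190 climbs to 1.88 near its stop codon.

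The stalk subunits, which hold the emerging RNA and contact initiation factors, included the 2 highest coding values of the set, RPA14 and RPB4. In Pol I, RPA14 had 2.07 and 2.57 in the frame, the highest of the 30, with only 330 of 5573 frames above it. Its partner RPA43 had -0.98 and -0.98. The members of this pair, which bind each other in the enzyme, thus lay on opposite sides of the array median (means 2.32 ± 0.35 and -0.98 ± 0.00, SD, n = 2; limma adjusted p = 3.0e-06 and 3.2e-05).

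In Pol II both stalk genes lay above the median. RPB4 had 1.87 and 1.79 in the frame, and RPB7 had 0.91 and 0.88. Neither pair of values overlapped the other, and both genes passed (limma adjusted p = 1.6e-06 and 5.1e-05). In Pol III, RPC17 had 1.06 and 0.79 and passed, and RPC25 had -0.06 and -0.12 and did not (limma adjusted p = 9.1e-05 and 0.37). Of the 6 stalk genes, 4 were above and 1 below, with a median of 0.91, where 39.1% of all frames lay above and 42.9% below. Of these genes 5 have frames under 750 bp, a length at which 65.5% of all frames lay above.

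The RPB4 locus was high at every used probe, although both promoter probes also lie upstream of the divergent gene YAK1. Its promoter probes read 1.46 and 1.80 as means of the arrays and its frame probes 1.98 and 1.68, so the promoter did not exceed the frame (-0.20 ± 0.33, SD, n = 2; limma adjusted p = 0.33). In RPB7 and RPC17 the frame exceeded the promoter, which was the reverse of most of the set. RPB7 had 0.29 and 0.35 at its promoter, 0.41 at 213 bp and 1.39 at 469 bp of its 516 bp frame. RPC17 had 0.65 and 0.26 at its promoter, 0.25 at 44 bp and 1.59 at 421 bp of its 486 bp frame. In both genes the value was highest at the probe next to the stop codon, and the promoter value rested on 1 probe. For RPC17 it was -0.10 with loess.

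For RPB7 the promoter minus frame difference was -0.57 ± 0.06 and for RPC17 -0.47 ± 0.08 (SD, n = 2; limma adjusted p = 0.0077 and 0.023). Neither call held with normexp background correction (-0.17 and -0.11; limma adjusted p = 0.35 and 0.55) or with dim probes kept (-0.34 and -0.22; limma adjusted p = 0.17 and 0.34).

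The RPA14 promoter value of 3.16 and 2.98 was the highest of the set, with 184 of 4542 promoters above it. It comes from 1 probe, 471 bp upstream of RPA14 (chr4:769020-769079), which also lies upstream of the divergent gene CPR1. The start codons of RPA14 and CPR1 are 524 bp apart, so this probe is nearer to CPR1, and the probes closer to RPA14 were an outlier or not well above background. With the window at 300 bp RPA14 had no promoter value.

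**Figure D3:**
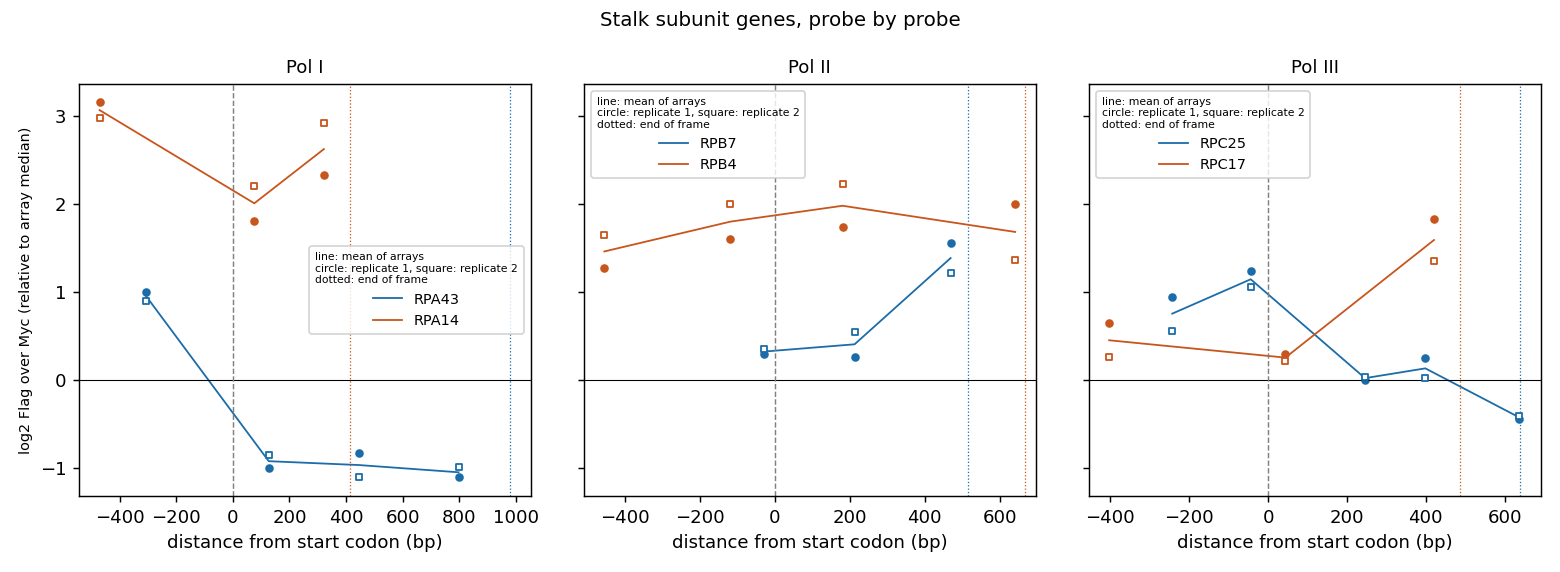
Median-centred log2 Flag over Myc (vertical axis) against distance from the start codon in bp (horizontal axis) for the stalk subunit genes of Pol I, Pol II and Pol III. Lines join means of the 2 arrays, circles are replicate 1, squares replicate 2, the dashed line is the start codon and dotted lines are the frame ends. RPA14 and RPB4 lie at 1.46 or above at every used probe, and RPB7 and RPC17 are highest at their last probe.

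RPA190 and RPA43 are neighbours on chromosome 15, transcribed away from each other from start codons 804 bp apart. Their shared probe (chr15:960454-960513) read 1.0 and 0.90. It was the only usable promoter probe of RPA43 and 1 of 2 for RPA190, so the promoter values of the pair are not independent. The difference between the shared probe and the frames was 1.93 ± 0.07 for RPA43, and the whole-promoter difference was 1.72 ± 0.18 for RPA190 (SD, n = 2). The usable probes between the 2 genes thus lay above the array median and both frame means below it, although the RPA190 frame rose above it at its 3′ end. Both promoter values (0.95) were near the median of all promoters (0.98).

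The zinc ribbon subunits, which take part in cleavage of the RNA in the active site, were divided. RPC11 of Pol III had 1.66 and 1.31 on its 1 frame probe. RPA12 of Pol I had -0.50 and -0.59, and RPB9 of Pol II had -0.92 and -0.63. RPC11 lay above the median and the other two below it (limma adjusted p = 1.2e-05, 0.00085 and 0.00026), although all 3 frames are under 400 bp long. RPC11 also had a high promoter (1.49 and 0.86), which came from the probe at 155 bp upstream (2.19) and not from that at 314 bp (0.16). RPB9 had 0.43 and -0.09 at its promoter, on opposite sides of 0, and RPA12 had no promoter probe well above background.

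The TFIIF-like subunits, built into Pol I as RPA49 and RPA34 and into Pol III as RPC53 and RPC37, had none that passed as higher in the frame. Of all frames 39.1% passed as higher and 42.9% as lower. RPA49 had -0.59 and -0.80 and RPC53 had -1.01 and -0.60, and both passed as lower (limma adjusted p = 0.00032 and 0.00042). RPA34 had 0.00 and -0.27 and RPC37 had 0.01 and 0.20, and neither passed (limma adjusted p = 0.25 and 0.35), although RPA34 passed as lower with medians over probes (-0.35; limma adjusted p = 0.010). Within RPA34 the first probe, at 48 bp, read 1.14 on replicate 1 and -0.03 on replicate 2. That was the widest disagreement between arrays among the frame probes, so the 5′ value of RPA34 is uncertain. The probe still passed as higher (limma adjusted p = 0.0032, over all used probes), because limma borrows spread across probes.

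The RPA34 promoter was high at 2.07 and 1.48, on 1 probe 450 bp upstream. The RPC53 promoter had -0.25 and 0.35 and did not pass (limma adjusted p = 0.79).

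The TFIIE-like subunits, the Pol III trio that opens DNA at the promoter, had 2 of 3 above the median, where 39.1% of all frames did. RPC34 had 1.06 and 1.32, RPC31 had 0.73 and 1.08, and RPC82 had -0.66 and -0.62 (limma adjusted p = 2.4e-05, 0.00015 and 0.00031). RPC34 was high along its whole frame, at 1.36, 0.88 and 1.34 on its 3 probes, with 1.97 and 2.07 at a promoter probe shared with the divergent gene SWM2. RPC31 declined along its frame from 1.95 at 42 bp to 0.71 at 395 bp and 0.06 at 551 bp. Its first part exceeded the middle by 1.24 and its last part fell below the middle, at -0.66 (limma adjusted p = 9.1e-05 and 0.0069).

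The RPC31 promoter differed between arrays, at 1.11 and 0.49. Of its probes the nearest, 48 bp upstream, was highest (1.65), and those at 366 bp and 496 bp lay at 0.48 and 0.27. The promoter minus frame difference was -0.11 ± 0.69 (SD, n = 2) over 500 bp and 0.74 over 300 bp, so its sign turned with the window. The same happened in RPC11, from -0.31 ± 0.20 to 0.71.

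The assembly subunits form the platform on which the core is put together. RPC40 and RPC19 do this in Pol I and Pol III, and RPB3 and RPB11 in Pol II. RPC40 had -0.83 and -1.03 in the frame and RPC19 had 0.52 and 0.70 on 1 probe. RPB3 had -1.0 and -1.06. The counterparts RPC40 and RPB3 thus both lay below the median, while RPC19, the small partner of RPC40, lay above it (limma adjusted p = 6.4e-05, 2.6e-05 and 0.00058).

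RPB11 had no coding value, since its single frame probe carried an outlier mark. All 4 assembly genes passed as higher at their promoters, RPC40 with 0.47 and 0.45, RPC19 with 1.40 and 1.52, RPB3 with 1.22 and 0.74 and RPB11 with 1.33 and 1.13. Of all promoters 75.9% passed as higher. RPB3 declined along most of its frame, from -0.01 at 260 bp and -0.75 at 533 bp to -2.04 at 724 bp, with -1.33 at 922 bp. Its last part lay below the middle by -0.94 ± 0.16 (SD, n = 2; limma adjusted p = 0.00094).

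The subunits common to all 3 enzymes bind the periphery and base of the core. Their frames lay on both sides of the array median. RPB10 had 0.39 and 0.42, RPC10 had 0.16 and 0.52, and RPB8 had 0.29 and 0.19, and these 3 passed as higher (limma adjusted p = 0.0036, 0.022 and 0.040). The RPB8 call was lost with normexp (0.027), with dim probes kept (0.14), with medians over probes (0.24) and with loess, where its sign turned (-0.19; limma adjusted p = 0.80, 0.18, 0.078 and 0.28 in this order). The RPC10 call was lost with dim probes kept (limma adjusted p = 0.078). RPB5 had -0.05 and -0.31 and did not pass (limma adjusted p = 0.13), but passed as lower with dim probes kept (-0.28) or with probes wholly inside the frame (-0.40; limma adjusted p = 0.040 and 0.0054). RPO26 had -0.49 and -0.63 and passed as lower (limma adjusted p = 0.00082). Mean values of the common genes ran from -0.56 to 0.41. Of all frames 39.1% passed as higher and 42.9% as lower. The 3 common genes with a promoter value all passed as higher, RPB10 with 1.41 and 1.06, RPC10 with 1.28 and 0.92 and RPB5 with 1.15 and 0.73. Of all promoters 75.9% did.

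By polymerase, the median coding value on replicates 1 and 2 was -0.59 and -0.80 for Pol I genes, -0.91 and -0.75 for Pol II genes, -0.03 and 0.04 for Pol III genes and 0.16 and 0.19 for the common ones. Pol I had 1 gene of 7 above the median (RPA14) and 5 below, Pol II 2 of 6 above and 4 below, and Pol III 4 of 10 above and 4 below, where 39.1% of all frames lay above and 42.9% below. At promoters the medians were 1.58 and 1.44 for Pol I, 0.43 and 0.35 for Pol II, and 1.09 and 0.81 for Pol III. All 5 measured Pol I promoters passed as higher, 8 of 9 Pol III promoters did, and 3 of 7 Pol II promoters did (RPB3, RPB11 and RPB4), where 75.9% of all promoters did. The Pol II count depends on the background correction: with normexp, 6 of 7 passed, RPB2 (0.34), RPB7 (0.48) and RPB9 (0.50) being added (limma adjusted p = 0.016, 0.00063 and 0.00033). With dim probes kept, 4 of 7 passed, and the medians were 0.59 for Pol I and 0.45 for Pol II. The median Pol II promoter lay below those of Pol I and Pol III on both arrays, but that difference was not tested. With a 300 bp window the Pol I median was 0.82 and the Pol III median 1.30, so the order of these 2 groups turned. That window left only 2 Pol I and 8 Pol III promoters measured, so these medians are not of the same genes.

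Frame length moved with the coding values. In frames of 1500 bp and over, all 7 members lay below the median, where 65.6% of such frames did and 18.3% lay above. In frames of 750 to 1499 bp, 2 of 8 members lay above and 5 below, where 43.2% and 36.7% of all such frames did. In frames under 750 bp, 9 of 15 lay above and 3 below, where 65.5% and 16.7% did. The member medians in these bands, from long to short, were -0.88, -0.75 and 0.34, and those of all frames -0.53, 0.05 and 0.71. The bands were chosen after the values were seen. Across genes, the coding value and log2 frame length had a Pearson correlation of -0.58 over the 30 members and -0.48 over all 5573 frames; genes are not independent replicates and a long frame has more probes away from its ends.

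The short frames differed widely at similar length. Among the 15 members under 750 bp the correlation with length was -0.04, and their values ran from -0.78 (RPB9) to 2.32 (RPA14). All 5 common subunit genes are in this band, and their highest value, 0.41 (RPB10), was below the 0.71 median of frames of that length. Of the members between 750 and 1499 bp, those that passed as higher were both Pol III genes of the TFIIE-like group, RPC34 and RPC31.

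**Figure D4:**
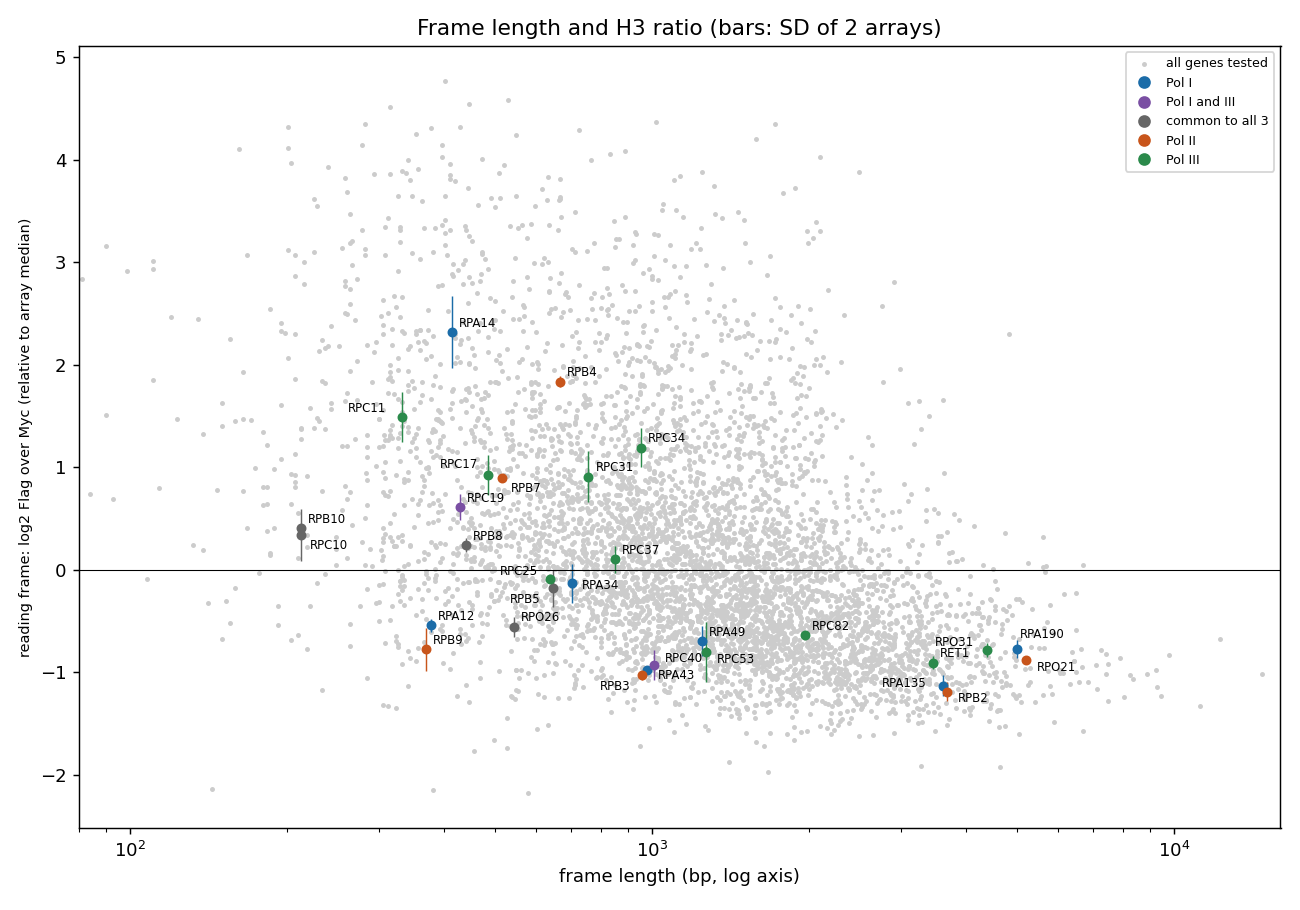
Coding log2 Flag over Myc, median-centred (vertical axis), against frame length in bp (horizontal log axis), with the 30 measured subunit genes in colour by polymerase over all 5573 frames in grey. Bars are the SD of 2 arrays. All 7 members of 1500 bp and over lie below 0, and members under 750 bp spread from -0.78 to 2.32.

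When each frame probe was set against the genome's mean at the same distance from the nearer frame end, 7 of 30 members stayed above and 18 lay below, where 35.2% and 44.8% of all frames did. The genes above were RPA14 (1.67), RPB4 (1.25), RPC11 (0.84), RPC34 (0.83), RPC31 (0.61), RPB7 (0.45) and RPC17 (0.28). These 7 were also above the plain array median. The lowest by this measure were the short RPB9 (-1.36) and the mid-length RPB3 and RPA43 (both -1.27), RPA12 (-1.19) and RPC40 (-1.10). The long RPA190, RPO21 and RPO31 did not pass on it, at -0.06, -0.13 and -0.12, so only their averages over the frame were near the genome's mean for their positions. Single probes departed from it in both directions. RPO31 had 0.33 at 792 bp and -1.81 at 3102 bp, where the genome's means were -0.62 and -0.99. RPA190 had 1.88 at 4910 bp, where the genome's mean was 0.65. By the gene measure all 5 common subunit genes lay below, between -0.95 (RPO26) and -0.24 (RPB10), which turned the sign for RPB8, RPB10 and RPC10.

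Within genes, the promoter exceeded the frame in 20 of 25 members and lay below it in 2, where 69.4% and 10.4% of 4392 genes did. The median difference was 0.94 against 0.91 for all genes. After RET1, the largest differences were 2.64 ± 0.00 in RPA135, 2.01 ± 0.29 in RPB3, 1.93 ± 0.07 in RPA43 and 1.91 ± 0.23 in RPA34 (SD, n = 2). All 5 Pol I genes with both values had the promoter above the frame, with a median of 1.91, although for RPA14 the 0.75 ± 0.48 (SD, n = 2) became -0.05 with outlier spots kept and 0.0093 with dim probes kept. RPC31, RPC11 and RPB4 did not pass, although with loess RPC11 (-0.59) and RPB4 (-0.50) passed with the promoter lower (limma adjusted p = 0.028 and 0.040). Across the 25 members promoter and coding values had a Pearson correlation of 0.50, and 0.52 across all 4392 genes.

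**Figure D5:**
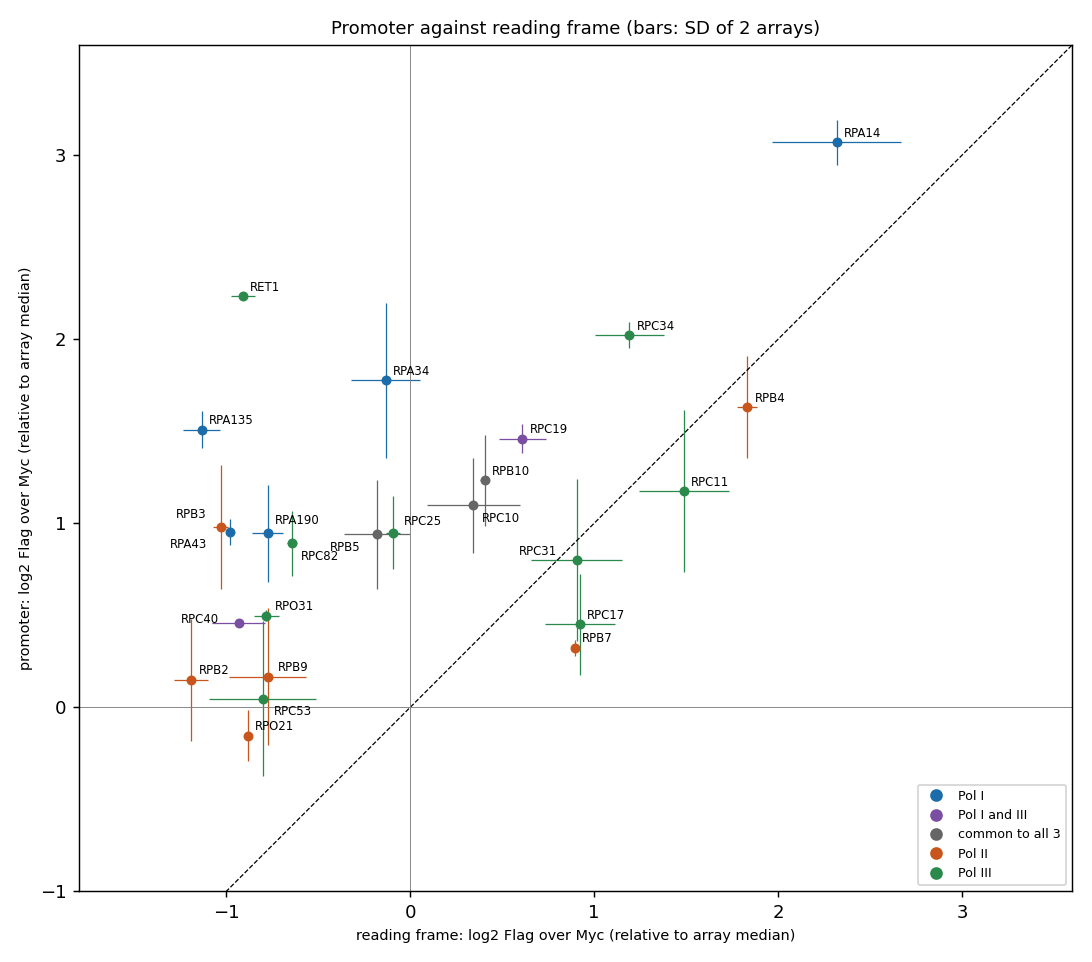
Promoter (vertical axis) against coding (horizontal axis) log2 Flag over Myc, median-centred, for the 25 subunit genes with both values, coloured by polymerase, with the SD of 2 arrays as bars and equality as a dashed line. RET1 lies farthest above the line (difference 3.14), and RPB7 and RPC17 lie below it.

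Promoters were measured less completely than frames. Of 66 promoter probes of the members, 22 (33.3%) were not well above background and 3 carried an outlier mark, where 27.2% of all promoter probes were not well above background. No frame probe of a member was below that limit, where 1.93% of all frame probes were. RPA49, RPA12, RPO26, RPB8 and RPC37 had no usable promoter probe. For 4 genes an upstream probe lay inside the frame of a divergent neighbour and was kept apart, at 0.19 for RPA49 (in CRS1), -0.21 for RPB9 (in MNP1), 0.54 for RPC53 (in SAS10) and -0.32 for RPO26 (in PZF1, which encodes the Pol III factor TFIIIA).

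The factors that work with the polymerases gave a similar picture in their frames. Over 7 lists, 29 of 93 measured genes lay above the array median and 49 below, with a median of -0.29, against 39.1% and 42.9% of all frames. At promoters 54 of 76 lay above and 3 below, with a median of 0.77, against 75.9% and 7.0% of all promoters. The Pol I initiation factors had 4 of 9 above and 4 below, from RRN3 (-0.77), which carries Pol I to the ribosomal DNA promoter, to RRN5 (2.08), of the upstream activating factor. The Pol III initiation factors and regulator had 1 of 11 above, TFC3 (0.33) of TFIIIC, and 8 below, the lowest being SPT15 (-0.98), which encodes the TATA-binding protein used by all 3 enzymes. The Pol II general initiation factors had 7 of 17 above and 8 below, from TFG1 (-1.60) of TFIIF to TFB3 (2.38) of TFIIH.

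For the remaining lists too, the share of all frames was 39.1% above and 42.9% below. The TFIID subunits had 5 of 13 above and 7 below, from TAF12 (-0.90) to TAF9 (1.54). Mediator, which links activators to Pol II, had 9 of 25 above and 11 below, from SRB8 (-0.99) to CSE2 (1.37). The Pol II elongation factors had 2 of 10 above and 6 below, from the histone chaperone SPT6 (-1.08) to CDC73 (0.91) of the Paf1 complex. The polymerase assembly and import factors had 1 of 8 above, NPA3 (1.23), and 5 below, the lowest BUD27 (-0.72). Within the Mediator and TFIID lists the lowest genes have longer frames (4284 bp for SRB8 and 1620 bp for TAF12) than the highest (450 bp for CSE2 and 474 bp for TAF9). The order of lengths was the same in the other lists except that of the Pol III initiation factors and regulator. There the lowest gene, SPT15, has a frame of 723 bp and the highest, TFC3, one of 3573 bp.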

How the data were processed

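Both arrays were Agilent 2-colour arrays. Agilent Feature Extraction 8.5.1.1 gave the deposited spot intensity values, background-subtracted, spatially detrended and dye-normalised, per the file headers. The deposited log10 ratio is Myc over Flag, and the deposited log2 value table held the same ratio uncentred to within 4.9e-08; the sources used here do not name the genome build. Here log2 of the Flag over the Myc processed intensity was centred on each array's median (-0.46 before centring on both). Of 41282 nuclear probes, 3964 were left out as not well above background and 2419 as outliers, none was saturated, and the number of arrays limits the precision. Probes are 60 bp long and start 267 bp apart (median).

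Frames came from the distances listed in the files, and frame lengths from a RefSeq gene table of assembly R64, which matched 5943 of 6593 frames. A length spans start to stop codon, introns included, and 45 frames whose left end was at odds with those of their neighbours were left out. The left position was the same in R64 for only 17.5%, so none of its coordinates is printed. Tests used limma 3.58.1 in R 4.3.3 (lmFit on an intercept, eBayes). The promoter fit used 1 spread for every gene, so its p-values are very small. Tested on simulated data, a coding shift of 0.5 was recovered in 83.0% of the changed genes and a promoter shift of 0.5 in 34.5%, and a shift of 1.0 in 100.0% and 99.0%. Between 5 and 12 unchanged genes were called. The simulation gave every gene the same spread and changed only a small part of them, whereas most genes were called in these data. Its rates therefore need not hold for the tests reported here.

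All 31 members are named, and of each list of transcription factors the highest and lowest coding value. Members and lists were chosen with earlier results of these data known. Alternatives were normexp background correction (offset 50), loess, scaling between arrays, no filter on dim probes, outlier flags kept, the deposited table, medians over probes, whole probes in the frame, a 300 bp promoter, subtraction of the mean by 100 bp of distance to the frame end, and leaving out each array. A planned search for promoter motifs was not run, since no sequence was used here.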

Additional observations from a re-analysis of the deposited data

How the results depend on the processing

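Across the alternatives that allow a test, 7 to 12 members were called higher and 15 to 18 lower in the frame, and 16 to 26 higher and 0 to 1 lower at the promoter. The promoter exceeded the frame in 17 to 23. With the main settings 39.1% of all frames were called higher and 42.9% lower, 75.9% of all promoters higher, and 69.4% of genes had the promoter above the frame. The number of measured members also changed with the setting, so the promoter ranges are not changes of call alone. For Pol I, 5 promoters were measured in the main values and 2 with the 300 bp window, and all passed as higher. Of the member values in these alternatives, 886 kept direction and side of the threshold, 20 gained a call, 18 lost it and 10 turned sign.

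Subtracting the position in the frame left 7 members higher and gave coding medians of -0.51 (Pol I and III), -0.41 (common), -0.35 (Pol II) and -0.14 (Pol III), and turned RPB8 (-0.41), RPB10 (-0.24) and RPC10 (-0.30). Loess gave coding medians of -0.47 (Pol I), -0.24 (Pol I and III), -0.11 (common) and 0.18 (Pol III), promoter medians of 0.90 (Pol I and III) and 0.18 (Pol II), 4 promoters called below their frame, and 6 promoters of the factor lists lower. It turned RPB8 in the frame (-0.19), RPC17 at the promoter (-0.10), the RPO21 last minus middle difference (-0.25), and probes of RPB2 at 283 bp upstream (-0.16), RPB8 at 91 bp (-0.11), RPC17 at 403 bp upstream (-0.10), RPC31 at 551 bp (-0.96) and RPO21 at 4795 and 4946 bp (-2.30 and -1.98). Normexp gave coding medians of -0.29 (Pol I and III), 0.027 (common) and -0.078 (Pol III), promoter medians of 1.26 (Pol I), 0.75 (Pol I and III) and 0.50 (Pol II), 0 promoters called below their frame, and -0.0031 for RPB5 last minus middle. Keeping dim probes gave -0.26, 0.14 and -0.092 for the same coding medians, promoter medians of 0.59 (Pol I) and 0.45 (Pol II), and 0 promoters called below their frame. The 300 bp window gave promoter medians of 0.82 (Pol I), 1.46 (Pol I and III) and 1.30 (Pol III), 1 member lower (RPO21), 1 promoter called below its frame, and turned RPC31 (0.74) and RPC11 (0.71) in promoter minus frame. Medians over probes gave -0.85 (Pol I) and -0.20 (Pol I and III) in the frame, kept outlier spots -0.12 (Pol I and III) and -0.052 for RPA14 promoter minus frame, and whole probes 0.089 (Pol III). The cause of these changes was not tested.

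Leaving out 1 array gave values with no test. The common coding median ranged from 0.16 to 0.19, the Pol II promoter median from 0.35 to 0.43, the Pol III one from 0.81 to 1.09, and the RPA34 probe at 48 bp from -0.029 to 1.14. No paired analysis was possible because there is 1 group.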
